A study of Homo sapiens with 2 samples.

Results

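The region described here is a window of 1 Mb on human chromosome 8 (GRCh37, 8:128200000-129200000) that holds MYC (8:128748315-128753680, plus strand) and, 335 kb upstream of the MYC start, a colon cancer enhancer at 8:128413305. Its members are the ChIP-seq peaks with their summit inside the window, which numbered 245 in the FLAG-wt-Cdx1 library and 92 in the FLAG-wt-Cdx2 library, or 337 of 415628 peaks in the series. DLD1-TetOff is a human colon cancer cell line with a transactivator that doxycycline (DOX) keeps off, so that withdrawing DOX turns on a transfected FLAG-tagged mouse cDNA. One group expressed FLAG-wt-Cdx1 and the other FLAG-wt-Cdx2, both of them clones grown with 0.5 µg/mL DOX and harvested 20 h after its withdrawal, with 10 dishes pooled for each library. The sample descriptions speak of cells kept with DOX that lack the tagged protein, but the protocols describe its withdrawal, so both libraries were taken as induced. There was 1 library for each factor and no control library was analyzed here. Therefore, no test between the factors was made. Intervals of counts, densities and single-site ratios cover counting error only. Intervals of medians and shares are taken over peaks or pairs as if these were independent, and none covers variation between libraries.

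MYC encodes a transcription factor that drives growth and proliferation, and in the colon it is a target of β-catenin and TCF downstream of Wnt signaling. The chromosome around it holds few protein-coding genes but many enhancers that act over long distances on MYC in a tissue-dependent manner. CDX1 and CDX2 are homeodomain transcription factors of the intestinal epithelium, where they bind promoters and distal enhancers of differentiation genes. In RefSeq (GRCh38.p14, used for names and gene order only), the neighbors of MYC were the long noncoding RNA genes CASC11 before it and PVT1 after it, and the nearest protein-coding genes were POU5F1B and GSDMC. The exons of MYC in the build of the lists were not used here.

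Pileup counts the fragments that cover a summit, without scaling to depth. Fold enrichment divides the pileup by the local background, after adding 1 to both, where the background is computed genome-wide and over the 10 kb around the peak and the higher value is taken. The FLAG-wt-Cdx1 library kept 16452141 tags and the FLAG-wt-Cdx2 library 13781541 tags, a ratio of 1.19. The genome-wide background was 0.798 and 0.694 fragments, respectively.

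Both factors had a peak just past the end of MYC, at nearly the same position, and neither had a peak over the MYC start. The FLAG-wt-Cdx1 peak at 8:128753853-128754022 had its summit 255 bp past the gene end, a pileup of 43 fragments (95% exact Poisson interval 31.1–57.9) and an enrichment of 7.93-fold. For FLAG-wt-Cdx2, the peak at 8:128753886-128754042 had its summit 292 bp past the gene end, a pileup of 13 fragments (6.92–22.2) and an enrichment of 6.45-fold. These summits were 37 bp apart. Among the 245 FLAG-wt-Cdx1 peaks of the window, 6 had a higher pileup, 1 an equal pileup and 11 a higher fold enrichment, and its fold enrichment was above that of 92.9% of all peaks of its list. Among the 92 FLAG-wt-Cdx2 peaks, 15 had a higher pileup, 3 an equal pileup and 13 a higher fold enrichment, and this enrichment was above 85.8% of its list. After scaling to kept tags, the pileup at this site was 2.77 times as high with FLAG-wt-Cdx1 (95% exact binomial interval 1.46–5.62), and the fold enrichment was 1.23 times as high. Pileup over background without the added 1 was instead lower with FLAG-wt-Cdx1, at 9.46 against 11.1, a ratio of 0.851. The local background there was 5.69 times the genome-wide value in the FLAG-wt-Cdx1 library and 1.68 times in the FLAG-wt-Cdx2 library, and its part in the difference in pileup was not tested.

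Inside MYC, FLAG-wt-Cdx1 had 3 summits and FLAG-wt-Cdx2 had 1, against 1.31 and 0.494 that the mean density of the window gives for this length. In each library, these summits had lower values than the site past the gene end. The FLAG-wt-Cdx1 summits lay 756 bp, 1.67 kb and 3.36 kb past the MYC start, with pileups of 19, 24 and 19 fragments and fold enrichments of 3.19, 4.12 and 3.42. Each of these fold enrichments was below the FLAG-wt-Cdx1 median of the window, 4.83. The FLAG-wt-Cdx2 summit lay 3.98 kb past the start, with 9 fragments (4.12–17.1) at 4.73-fold enrichment, and the nearest FLAG-wt-Cdx1 summit was 617 bp away. Further downstream, FLAG-wt-Cdx1 had summits 5.48 kb and 8.60 kb past the gene end, with pileups of 22 and 25 fragments and fold enrichments of 4.82 and 5.43. FLAG-wt-Cdx2 had a summit 4.61 kb past the gene end, with 8 fragments at 4.52-fold enrichment. With flanks of 5 kb, MYC thus had 4 summits in the FLAG-wt-Cdx1 library and 3 in the other. The mean density of the window gives 2.45 and 0.920 summits, respectively, for 5 kb on either side of a point. For 10 kb on either side it gives 4.90 and 1.84. The gene with its 5 kb flanks has a length between these. The FLAG-wt-Cdx1 count of 4 thus lay within this range, and the FLAG-wt-Cdx2 count of 3 lay above it, on few summits.

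No summit of either library lay in the 10 kb upstream of MYC. The nearest upstream summit was 13.3 kb away for FLAG-wt-Cdx1, with 19 fragments at 4.33-fold enrichment, and 32.3 kb away for FLAG-wt-Cdx2, with 6 fragments at 4.13-fold enrichment. What could be listed depends on the background. Over the whole list, the lowest pileup of a FLAG-wt-Cdx1 peak with a background like that of the peaks at MYC was 12 fragments, against 5 fragments for FLAG-wt-Cdx2. The background in the 10 kb upstream of MYC itself cannot be read from lists of peaks.

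**Figure D1:**
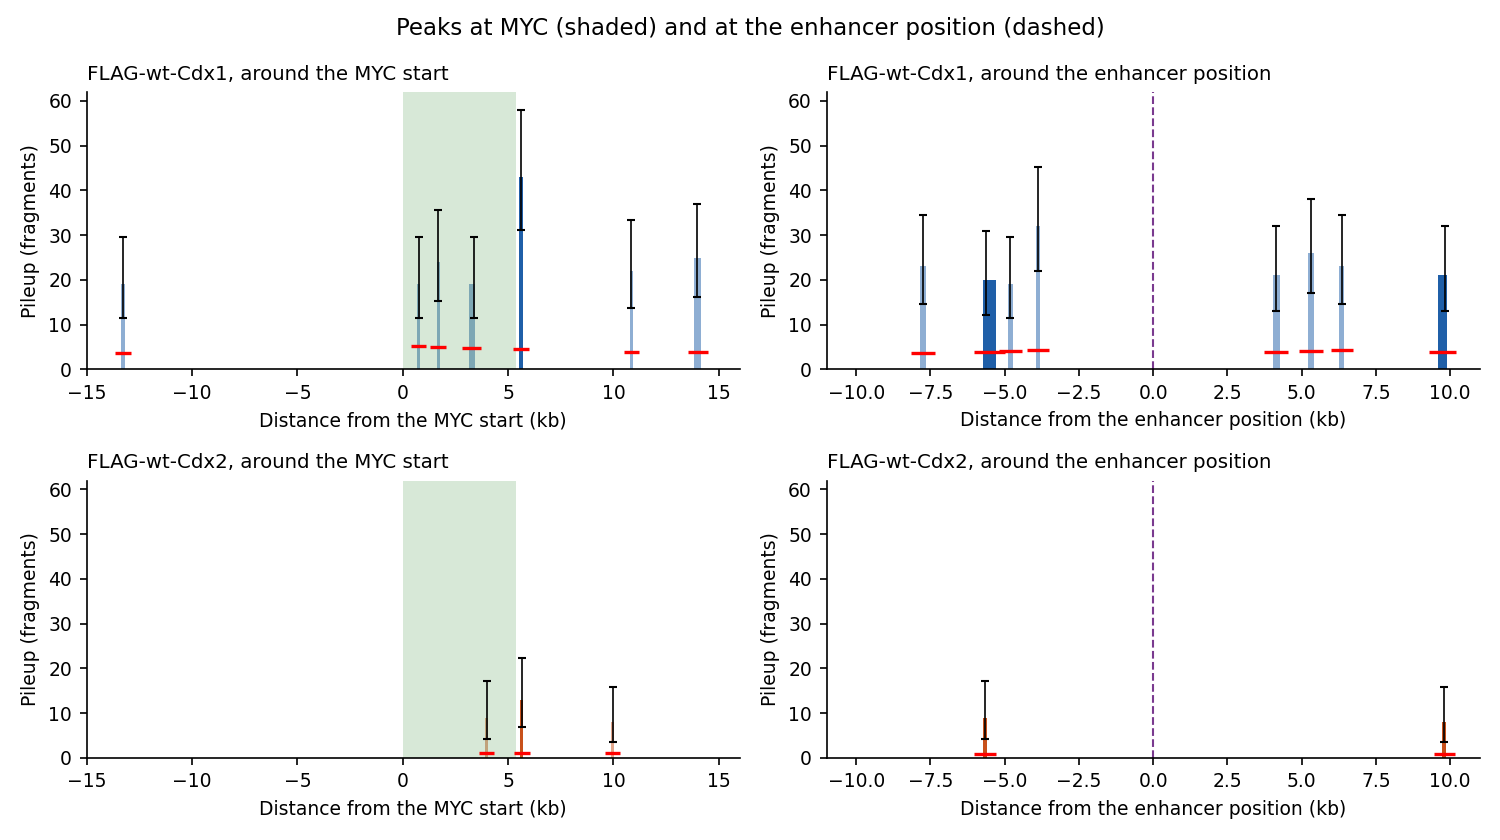
Peaks around the MYC start and around the enhancer position in each library, with the distance in kb on the horizontal axis and the pileup in fragments on the vertical axis. Bars span the peaks, darker bars have a summit of the other library within 100 bp, error bars are 95% exact Poisson intervals, and the red line is the local background. The highest bars at MYC are those just past the gene end, at 43 and 13 fragments, and no bar covers the enhancer position.

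The colon cancer enhancer is one of the distal elements upstream of MYC. No peak of either library covered its position, and none had its summit within 2 kb of it, where the mean density of the window gives 0.980 summits for FLAG-wt-Cdx1 and 0.368 for the other library. Within 5 kb, FLAG-wt-Cdx1 had 3 summits and FLAG-wt-Cdx2 had 0, against 2.45 and 0.920 at that density, and within 10 kb they had 8 and 2, against 4.90 and 1.84. The nearest FLAG-wt-Cdx1 summit lay 3.87 kb upstream, with a pileup of 32 fragments (21.9–45.2) at 6.32-fold enrichment, the highest values of both kinds within 10 kb. On the other side, the nearest summit lay 4.14 kb downstream, with 21 fragments at 4.44-fold enrichment. The other 6 FLAG-wt-Cdx1 peaks within 10 kb had pileups from 19 to 26 fragments and fold enrichments from 3.94 to 5.31.

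FLAG-wt-Cdx2 had its nearest summit 5.66 kb upstream of the enhancer position, with a pileup of 9 fragments (4.12–17.1) at 5.63-fold enrichment. Its other summit within 10 kb lay 9.81 kb downstream, with a pileup of 8 fragments (3.45–15.8) at 4.78-fold enrichment. Both of them had a FLAG-wt-Cdx1 summit close by, 35 bp and 11 bp away. The depth-scaled pileup at these pairs was 1.86 times (0.810–4.64) and 2.20 times (0.936–5.74) as high with FLAG-wt-Cdx1, and both intervals include equality. Around the enhancer, the 10 kb background held a median of 306 tags in the FLAG-wt-Cdx1 library and 61.0 tags in the other. The lowest pileups listed anywhere at a like background were 12 and 5 fragments.

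The highest peaks of the window lay on both sides of MYC. For FLAG-wt-Cdx1, the 5 highest pileups were 57 fragments at a summit 305 kb downstream of the MYC start, 54 at 243 kb upstream, 49 at 296 kb upstream, 48 at 448 kb downstream and 47 at 184 kb upstream. Each of these 5 sites also had a FLAG-wt-Cdx2 summit within 100 bp, against 20.8% of all FLAG-wt-Cdx1 summits of the window. Shared FLAG-wt-Cdx1 peaks of the window were higher in general, with a median pileup of 29 fragments against 19.5 for those not shared. The same held in the rest of the block of raised background described further on, with 24 against 18 fragments. The share among equally high peaks elsewhere was not computed. By fold enrichment, the first was a site 497 kb upstream, at 13.4 with a pileup of 43 fragments, followed by the site 243 kb upstream at 12.2. The sites 448 kb downstream and 184 kb upstream followed at 10.6 and 10.197. The fifth, at 9.26 with a pileup of 38 fragments, lay 354 kb upstream of MYC and 18.5 kb from the enhancer position, and its nearest FLAG-wt-Cdx2 summit was 101 bp away, just outside the distance that counts as shared.

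For FLAG-wt-Cdx2, the highest pileup was 23 fragments in a peak of 1161 bp with its summit 479 kb upstream of the MYC start, followed by 21 fragments at 478 kb upstream, the latter not shared. The local background there was 3.60 and 3.51 times the genome-wide value, and the fold enrichments were 6.85 and 6.41. Pileups of 20, 18 and 18 fragments followed at 407 kb, 175 kb and 305 kb downstream. By fold enrichment the order was different. The site 407 kb downstream was first at 10.1, the sites 497 kb and 243 kb upstream had 10.0 each, and those 272 kb upstream and 175 kb downstream had 9.30 and 8.24. The sites 497 kb and 243 kb upstream were thus among the first 3 by fold enrichment in both libraries.

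**Figure D2:**
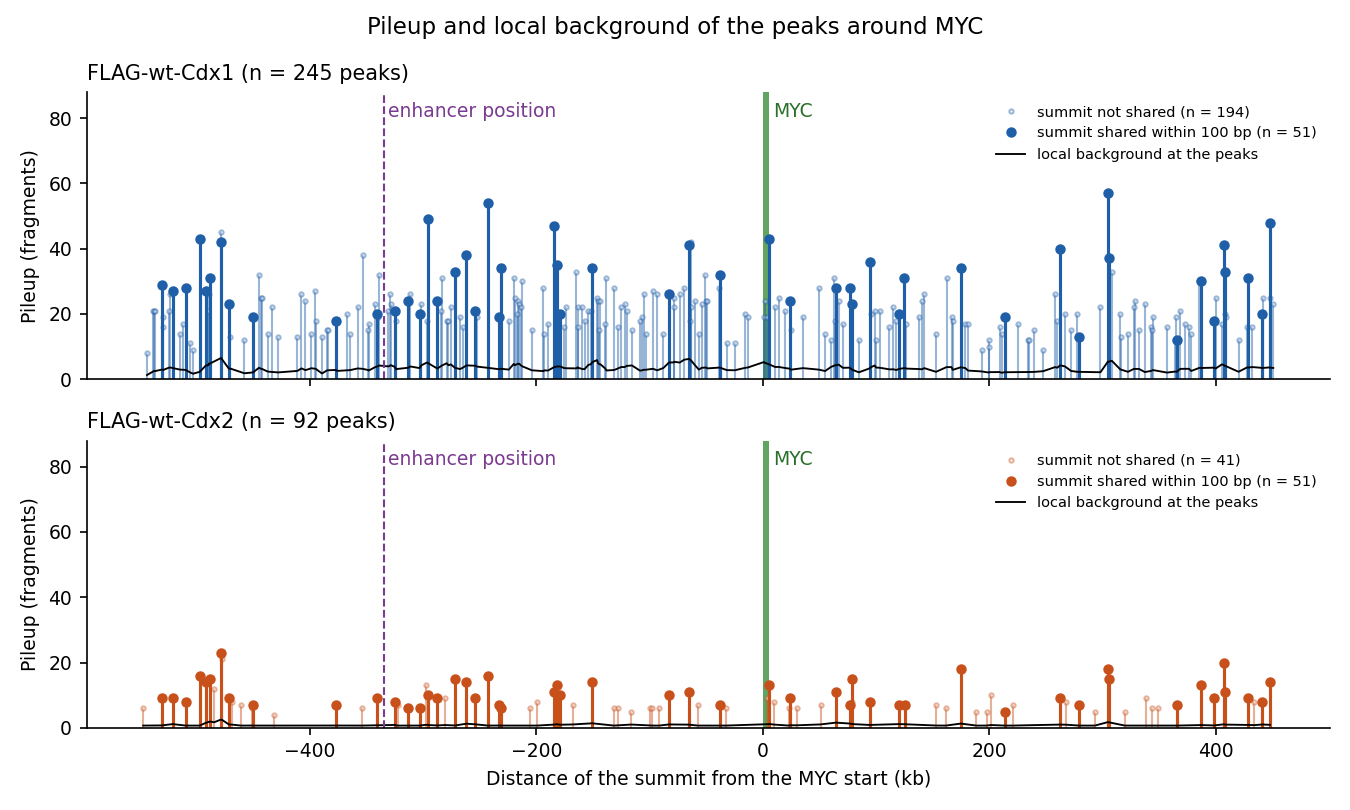
Pileup in fragments of every peak of the window against the distance of its summit from the MYC start in kb, with the 245 FLAG-wt-Cdx1 peaks on top and the 92 of FLAG-wt-Cdx2 below. Filled points are the 51 summits of each library with a summit of the other within 100 bp, and the black line is the local background. FLAG-wt-Cdx1 reaches 57 fragments and FLAG-wt-Cdx2 23 fragments, and the background line is higher in the FLAG-wt-Cdx1 library.

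Peaks were spread over the whole window in both libraries. Upstream of MYC there were 144 FLAG-wt-Cdx1 summits (26.3 per 100 kb) and downstream 98 (22.0 per 100 kb), and the FLAG-wt-Cdx2 summits numbered 51 (9.30 per 100 kb) and 40 (8.96 per 100 kb). Each of the 10 stretches of 100 kb held 17 to 34 FLAG-wt-Cdx1 summits, and the range for FLAG-wt-Cdx2 was 3 to 15. The stretch with the fewest FLAG-wt-Cdx1 summits was the one that holds MYC, with 17, but the stretch from 152 kb to 252 kb downstream had 18. With FLAG-wt-Cdx2 the stretch that holds MYC had 9 summits. The stretch richest in FLAG-wt-Cdx2 summits was the first, from 548 kb to 448 kb upstream, and the one beside it held the fewest. Neighboring summits were a median of 3306 bp apart with FLAG-wt-Cdx1 and 9118 bp apart with FLAG-wt-Cdx2. The longest stretch without a FLAG-wt-Cdx2 summit, 54.5 kb, ran from 432 kb to 377 kb upstream of MYC, and that without a FLAG-wt-Cdx1 summit, 19.0 kb, from 279 kb to 298 kb downstream.

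Summits of the libraries coincided within 100 bp at 51 sites, at a median distance of 24 bp. These made up 20.8% of the FLAG-wt-Cdx1 summits (95% Wilson interval 16.2–26.3) and 55.4% of the FLAG-wt-Cdx2 summits (45.3–65.2). On the rest of chromosome 8 the shares were 25.4% and 29.6%. The window lies in a longer block of raised FLAG-wt-Cdx1 background, described further on, and in the rest of that block the shares were 18.1% and 53.1%, so that both shares in the window were near those of the block. Shared FLAG-wt-Cdx1 peaks had a median pileup of 29 fragments and a median fold enrichment of 6.28, against 19.5 fragments and 4.55 for those not shared. Shared FLAG-wt-Cdx2 peaks had 9 fragments and 5.59, against 6 fragments and 4.13. Of the 32 FLAG-wt-Cdx2 peaks with a −log10 q of at least 5, 28 (87.5%) had a FLAG-wt-Cdx1 summit within 100 bp, compared with 49.8% of such peaks on the rest of the chromosome and 74.5% in the rest of the block. Of the 183 FLAG-wt-Cdx1 peaks past the same threshold, 49 (26.8%) were shared, compared with 32.1% and 22.6%. At the limit of 100 bp, the widest shared pair was 95 bp apart, with pileups of 26 and 10 fragments, and the nearest pair outside it was 101 bp apart, with 38 and 6 fragments.

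At all 51 shared sites the depth-scaled pileup was higher with FLAG-wt-Cdx1, with a median ratio of 2.26 (2.14–2.65) and a range from 1.28 to 4.75. It was higher at 59.6% of the shared sites on the rest of chromosome 8 and at 99.0% of those in the rest of the block, where the median ratio was 2.37. A shared site must be listed in both libraries, and a raised background raises the pileup needed for listing. At backgrounds like the middle ones of the window (quartiles 2.83 and 4.07 fragments with FLAG-wt-Cdx1), the lowest unscaled pileup listed anywhere was 9 fragments with FLAG-wt-Cdx1. With FLAG-wt-Cdx2 it was 4 fragments. The window also held a FLAG-wt-Cdx1 peak of 8 fragments, at its lowest background, 1.31 fragments. Sites with a FLAG-wt-Cdx1 pileup below what is listed at their background could thus not be counted as shared. The part of this selection in the count of 51 and in the ratios was not tested. The exact interval of the ratio lay above 1 at 30 sites and included 1 at the other 21. These intervals were computed for the window only, so this count has no share elsewhere beside it and is not read as particular to MYC. The ratio was at least 2 at 37 of 51 sites (72.5%), against 16.8% of the shared sites on the rest of chromosome 8 and 67.3% in the rest of the block. In contrast, the ratio of the fold enrichments had a median of 1.099 (1.01–1.31). That was near the 1.08 on the rest of the chromosome and the 1.13 in the rest of the block. The ratio was above 1 at 33 of 51 sites (64.7%), compared with 61.6% and 66.0%, respectively. This direction depends on the 1 added to pileup and background. Without it, the median ratio was 0.755 (0.667–0.828), and FLAG-wt-Cdx1 was higher at 9 of 51 sites (17.6%), compared with medians of 0.942 on the rest of the chromosome and 0.714 in the rest of the block. The ratio of the local backgrounds at the same sites, each relative to its genome-wide value, had a median of 3.38 and a range from 2.17 to 5.53, compared with medians of 1.05 elsewhere on the chromosome and 3.46 in the rest of the block, and its part in the pileup ratio was not tested. Among the strongest shared sites, by the lower depth-scaled pileup of the pair, 5 lay 497 kb and 479 kb upstream and 175 kb, 305 kb and 407 kb downstream of the MYC start. Their pileups with FLAG-wt-Cdx1 and FLAG-wt-Cdx2 were 43 and 16, 42 and 23, 34 and 18, 57 and 18, and 41 and 20 fragments, in that order. The depth-scaled ratios were 2.25, 1.53, 1.58, 2.65 and 1.72, and the fold enrichment was higher with FLAG-wt-Cdx1 at the first and the fourth of these sites and higher with FLAG-wt-Cdx2 at the others. The site 243 kb upstream, with 54 and 16 fragments, had the same lower value as the site 497 kb upstream, a tie broken by position, with a ratio of 2.83 and a higher fold enrichment with FLAG-wt-Cdx1. Without the added 1, FLAG-wt-Cdx1 was higher only at the site 305 kb downstream among these 6.

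**Figure D3:**
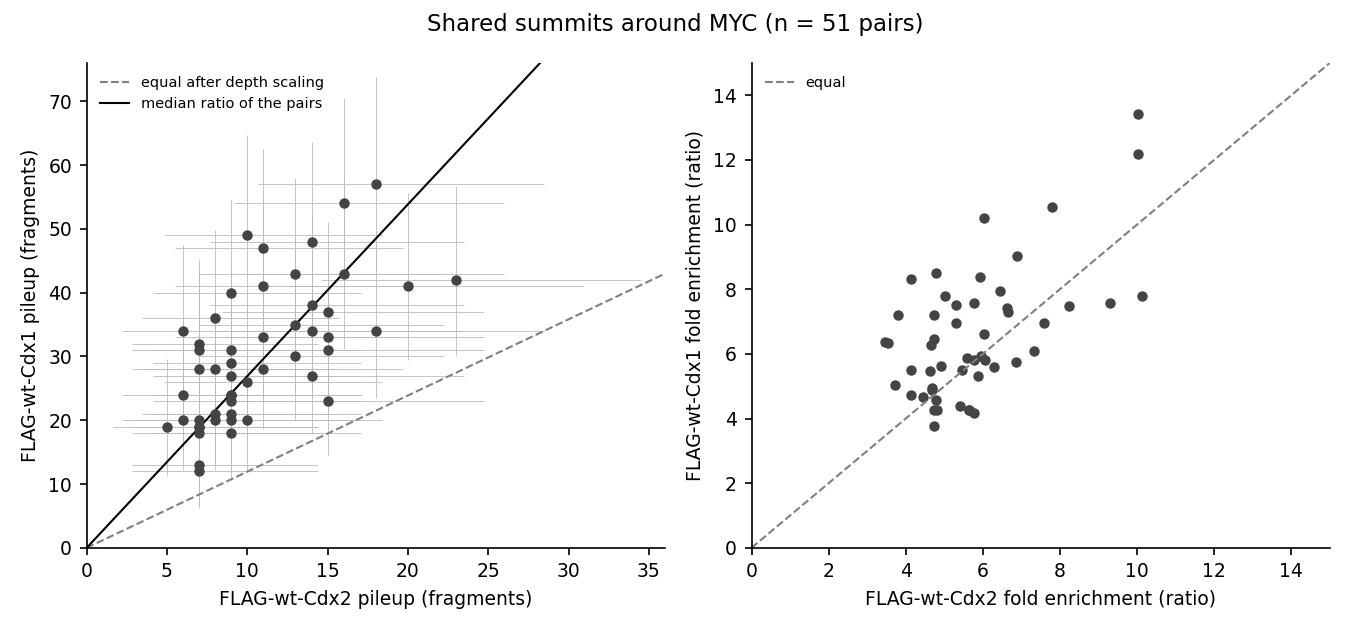
The 51 shared sites of the window, with FLAG-wt-Cdx1 on the vertical axis and FLAG-wt-Cdx2 on the horizontal axis, for pileup (fragments) on the left and fold enrichment on the right. Each point is a site, grey lines are 95% exact Poisson intervals, dashed lines mark equality (after depth scaling on the left) and the solid line is the median ratio. The pileups lie along a median depth-scaled ratio of 2.26, whereas the fold enrichments lie on both sides of the line of equality.

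The window was compared with the rest of chromosome 8 within each library. FLAG-wt-Cdx1 had 245 summits in this 1 Mb (95% exact Poisson interval 215–278) and 89.1 per Mb on the rest of the chromosome, a ratio of 2.75 (2.42–3.12). FLAG-wt-Cdx2 had 92 summits (74.2–113) and 76.5 per Mb, a ratio of 1.20 (0.970–1.48). Among the other 145 stretches of 1 Mb on the chromosome, 3 held more FLAG-wt-Cdx1 summits than the window and 36 held more FLAG-wt-Cdx2 summits.

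The FLAG-wt-Cdx1 density went together with a raised local background. Without a control, this background counts the tags of the same library over 10 kb, those of peaks included. Density and background are therefore not independent. In the window this background was a median of 4.30 times the genome-wide value (4.10–4.40) in the FLAG-wt-Cdx1 library, compared with 1.35 on the rest of the chromosome. It was 1.17 (1.02–1.33) in the FLAG-wt-Cdx2 library, compared with 1.04. It exceeded 2 times the genome-wide value at 244 of 245 FLAG-wt-Cdx1 peaks (99.6%) but at 8 of 92 FLAG-wt-Cdx2 peaks (8.70%), against 32.2% and 4.02% on the rest of the chromosome. The window is part of a longer block, 8:121000001-139000000, defined from these data as neighboring stretches of 1 Mb in which the FLAG-wt-Cdx1 background, relative to its genome-wide value, was more than 2 times that of FLAG-wt-Cdx2, so that the raised ratio in the block follows from its definition. In the rest of the block FLAG-wt-Cdx1 had 236 summits per Mb, 95.9% of them over such a background, compared with 69.6 per Mb on chromosome 8 outside the block, and the FLAG-wt-Cdx2 values were 80.5 and 75.9 per Mb. All 3 stretches with more FLAG-wt-Cdx1 summits than the window lay in the block. Against the rest of the block, the density ratio of the window was 1.04 in the FLAG-wt-Cdx1 library and 1.14 in the other. The part of the background in the number of peaks was not tested, and with 1 library for each factor the clone, the library and the factor cannot be told apart.

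**Figure D4:**
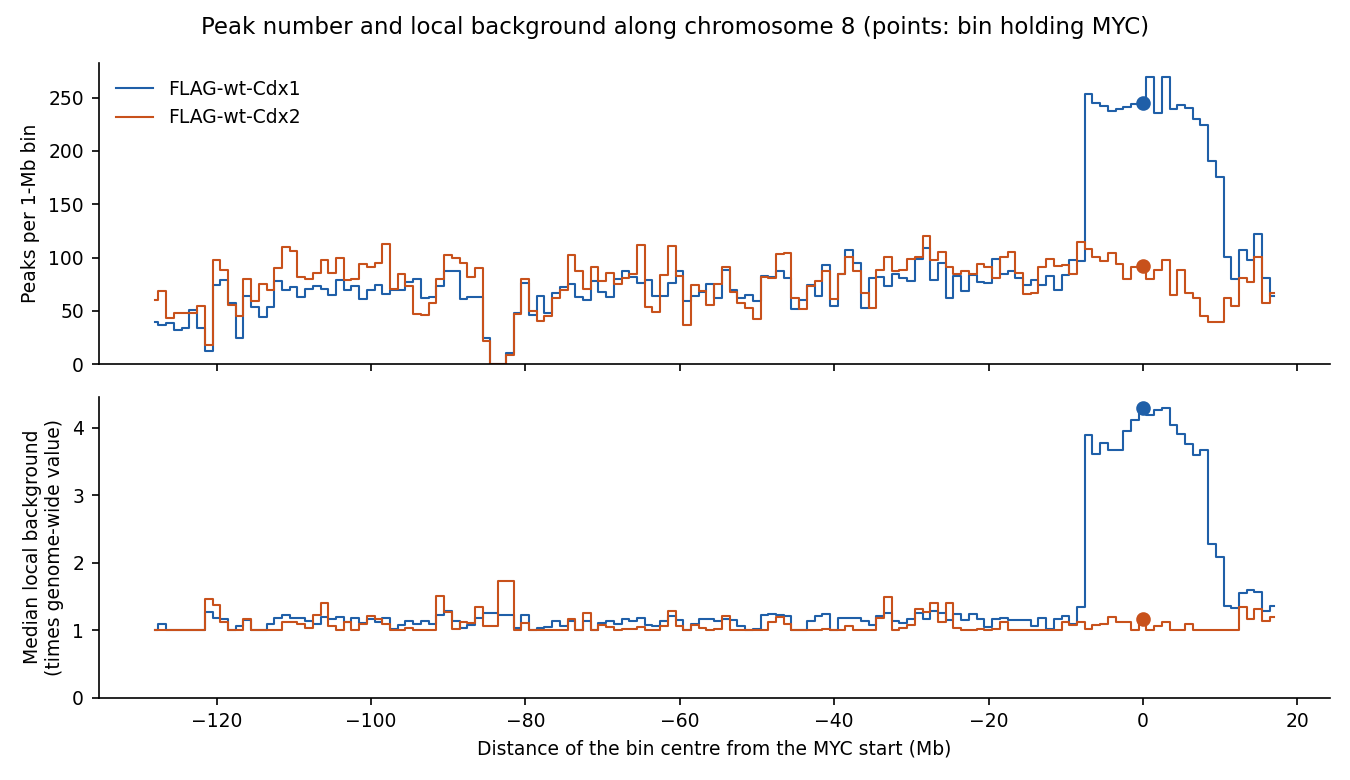
Peaks per stretch of 1 Mb (top) and median local background relative to the genome-wide value of the library (bottom) along chromosome 8, against the distance from the MYC start in Mb, for both libraries. Around MYC the FLAG-wt-Cdx1 values rise together, to 245 peaks and a background of 4.30 in the window, whereas FLAG-wt-Cdx2 has 92 peaks and a background of 1.17 there.

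The heights of the peaks showed the same contrast between the measures. The median FLAG-wt-Cdx1 pileup was 21 fragments (20–22) in the window, with a range from 8 to 57, compared with 11 on the rest of chromosome 8, 19 in the rest of the block and 9 outside it. The median FLAG-wt-Cdx2 pileup was 8 fragments (7–9), with a range from 4 to 23, and was 8 in all 3 other parts. FLAG-wt-Cdx1 pileups above the 90th percentile of their list made up 197 of the 245 peaks of the window (80.4%), against 27.1% on the rest of the chromosome and 72.0% in the rest of the block. For FLAG-wt-Cdx2 they made up 15 of 92 (16.3%), against 6.84% and 5.84%.

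Relative to the local background, the median of the FLAG-wt-Cdx1 peaks around MYC was below that on the rest of the chromosome. Their median fold enrichment was 4.83 (4.56–5.05), compared with 5.18 on the rest of chromosome 8, 4.85 in the rest of the block and 5.34 outside it. Without the added 1 the gap was wider. The median pileup over background was 6.11 in the window, against 8.77 on the rest of chromosome 8, 6.22 in the rest of the block and 10.0 outside it. The FLAG-wt-Cdx2 median was 4.72 (4.67–5.02), the same as on the rest of the chromosome, a value that a pileup of a few fragments over the genome-wide background takes in steps. Fold enrichments above the 90th percentile of the list were found at 19 FLAG-wt-Cdx1 peaks (7.76%, against 10.1%) and at 10 FLAG-wt-Cdx2 peaks (10.9%, against 9.78%), which is near the background in both. The −log10 q, which rises with the pileup at a given enrichment, was above the 90th percentile at 84 FLAG-wt-Cdx1 peaks (34.3%, against 15.8%) and at 13 FLAG-wt-Cdx2 peaks (14.1%, against 9.17%). In the rest of the block these shares were 29.2% and 8.11%.

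**Figure D5:**
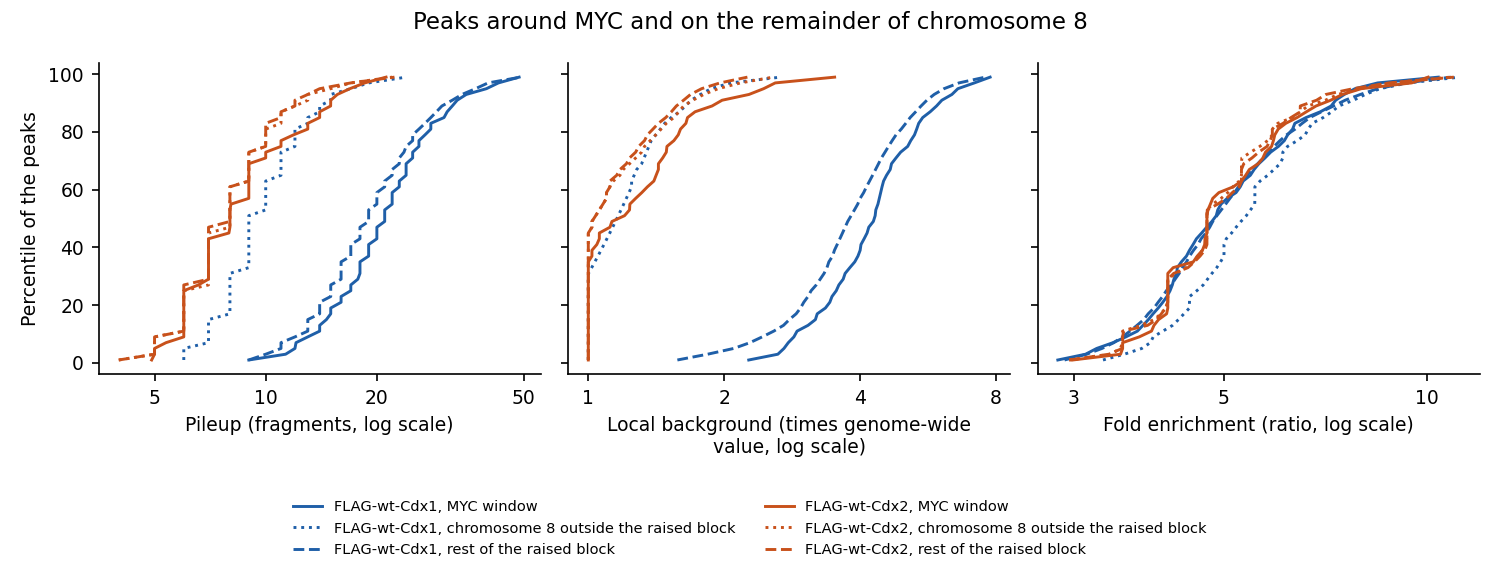
Percentile of the peaks (vertical axis) against pileup in fragments, local background relative to the genome-wide value, and fold enrichment (horizontal axes, log scale) for the window, the rest of the block and chromosome 8 outside the block, for each library. The FLAG-wt-Cdx1 pileup and background of the window lie to the right of those outside the block, with median pileups of 21 and 9 fragments, whereas the fold enrichments have medians of 4.83 and 5.34.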

How the data were processed

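Peak lists of anti-FLAG ChIP-seq in DLD1-TetOff cells, 1 with FLAG-wt-Cdx1, the other with FLAG-wt-Cdx2, were grouped by sample title. Fixed chromatin had been digested with micrococcal nuclease. Per the file headers, the authors ran MACS 2.0.10.20131216 on every library by itself without a control, keeping 1 tag per position, with an effective genome of 2700000000 bp and q-values up to 0.05. The submitters' processing notes name GRCh37, bcl2fastq 1.8.3, cutadapt 1.1, Trimmomatic 0.32 and MACS2 2.0.10. The role of each is not given in the sources used here. The names of the input in the file headers hold both bowtie and BWA, and the aligner is not otherwise given. The deposited values were the pileup signal at the summit, −log10 values of p and of q (the q-value being the adjusted p-value), and the fold enrichment, a ratio of pileup to local background. The narrowPeak lists were not used.

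The local background was recovered from the deposited pileup and fold enrichment. Where it exceeded the genome-wide value, it came to whole tags in 10 kb (within 0.05) at 100% of peaks, and the deposited −log10 p was recovered from it within 0.05 at 100% of peaks. A background raised over 10 kb lowers the fold enrichment and raises the pileup needed for a call. Kept tags were 95.3% and 94.8% of 17264704 and 14534643 tags. Densities and pileups have 95% exact Poisson intervals, shares Wilson intervals, medians order-statistic intervals, and pileup ratios exact binomial intervals. Summits within 100 bp were shared, and pairs were mutual nearest summits. The block was a run of at least 5 stretches of 1 Mb with at least 5 peaks each. Chromosome 8 was taken to end at its last peak, which gave 146 Mb.

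Peaks named were those within 10 kb of MYC or of the enhancer position, the nearest peaks to each, the 5 highest of each library by pileup and by fold enrichment, and the 5 shared pairs with the highest lower depth-scaled pileup. The members, thresholds and lists were chosen with earlier results of these data known. Alternatives covered stricter thresholds, other distances, regions and scalings. The scripts were tested on simulated data. Peaks at the genes of the MYC network and sequences at the summits are not reported, since no annotation or genome of this build was used here. Software was scipy 1.17.1, pandas 2.3.3, numpy 2.4.6 and matplotlib 3.10.9 under Python 3.11.15.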

Additional observations from a re-analysis of the deposited data

How the results depend on the processing

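Of 68 values under alternative settings, 41 stayed within their interval or, for counts, within 1.5 times the reported count, 26 moved further and 1 changed direction. Where a value moved, the cause was not tested beyond what the setting itself removes. With a −log10 q of at least 5, the window held 183 peaks with FLAG-wt-Cdx1 against 32 with FLAG-wt-Cdx2, the density ratios were 3.56 (FLAG-wt-Cdx1) and 1.48 (FLAG-wt-Cdx2), the pileup ratios 1.64 and 1.18, the FLAG-wt-Cdx1 background ratio 3.00 and the FLAG-wt-Cdx2 fold enrichment ratio 0.958. With this threshold in both lists, 15.3% of FLAG-wt-Cdx1 and 87.5% of FLAG-wt-Cdx2 summits were shared, and MYC with its flanks kept 2 and 1 peaks. With a fold enrichment of at least 5, the window held 109 and 37 peaks. Against chromosome 8 without the block, the FLAG-wt-Cdx1 ratios were 3.52 for density, 2.33 for pileup and 3.74 for background. Against the block without the window they were 1.04, 1.11 and 1.13, and 0.996 for fold enrichment. Pileup over background without the pseudocount, chosen after seeing the data, gave ratios of 0.696 and 0.914, and turned the ratio of enrichments at shared sites from above 1 to 0.755. Around the enhancer position, FLAG-wt-Cdx1 had 0 summits within 2 kb and 8 within 10 kb, and FLAG-wt-Cdx2 had 2 within 10 kb. Without scaling, the pileup ratio at shared sites was 2.69. No paired analysis was possible because each factor had 1 library and no result comes from a test, and for the same reason no replicate could be left out.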
